A study of Mus musculus with 96 samples.

Results

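Ribosome biogenesis starts in the nucleolus, where RNA polymerase I transcribes the long precursor of the 18S, 5.8S and 28S ribosomal RNAs (rRNAs). Small nucleolar ribonucleoproteins (snoRNPs) guide the modification of this precursor, the small subunit processome folds and cleaves the part that becomes the 40S subunit, and a separate series of factors assembles the 60S subunit. Cells that leave quiescence and grow are known to raise the output of this pathway, because each daughter cell needs a full set of ribosomes. The genes described here are 60 genes of this pathway, chosen by name: 7 act in RNA polymerase I transcription, 9 in snoRNPs and rRNA modification, 6 are abundant nucleolar chaperones and regulators, 19 act in the small subunit processome and 40S assembly and 19 in 60S assembly. Of the 60, 59 had a row among the 15895 rows of the deposited expression table, and Noc2l, of the 60S group, was not analysed here.

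The cells were primary mouse embryonic fibroblasts (MEFs), prepared from CF-1 embryos on embryonic day 13. No gene was altered. All cultures were held for 36 h in 0.5% fetal calf serum (FCS), a starvation that brings fibroblasts towards quiescence, and serum was then raised to 20% at 0 h. Cells released in this way are known to move through the cell cycle only in partial synchrony. Cycle 1 was sampled 64 times from -1 h to 38 h after serum, most of them 0.5 h apart, and 63 of these libraries were analysed, since the 12.5 h library was not used here. Cycle 2 had 32 libraries from -1 h to 27 h. The starved group was the -1 h and 0 h libraries of both Cycles (n = 4). The 2 Cycles shared 29 hours after serum, with 1 library per hour and Cycle, and these hours were grouped into 8 windows between 1 h and 27 h. The labels do not say whether successive libraries of a Cycle came from separate cultures or pooled embryos, so the p-values measure the spread between libraries.

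Values are read counts per gene that were scaled to 10000000 reads per library by the authors, and are called levels below. Libraries held 5067426 to 14500245 reads (median 10832562), so a level of 1 stood for about 1 read, and the lowest level of any member in any library was 33.4. The fibroblast label was checked with 10 markers, whose summed level was 389245 to 536681 in starved cells and 175585 to 500948 after serum, while the 1 erythroid marker in the table never passed 6.24. Macrophage and leukocyte markers (7 of 7 present) summed to 1122 and 1207 in starved Cycle 1 and to 3399 in both starved libraries of Cycle 2. Lyz2 made up most of each of these sums and ran from 784 to 2889 over the starved libraries. Muscle markers (3 of 3 present) summed to 609 and 697 in starved Cycle 1 against 1658 and 1667 in starved Cycle 2. Most of each sum was Des, which ran from 491 to 1648 over the starved libraries. Myog ran from 14.8 to 111 and Myod1 from 4.12 to 24.0. In the starved library that summed to 1667, Des was at its highest and Myog and Myod1 at their lowest, so the 3 did not move together. In Cycle 1, the libraries at 24.5 h and 26 h stood apart from their neighbours in time. Their median absolute log2 difference was 0.422 and 0.243 over 11882 genes, against a median of 0.10 over 75 libraries. Those at 24, 25 and 5.5 h of Cycle 1 had 0.277, 0.253 and 0.250, the first 2 being next to 24.5 h. The 24 h and 25 h libraries were in the tests and were not left out in turn. The 24.5 h library entered no main test, only an alternative with all libraries in the windows. The values without the 26 h library are given where a result rests on it.

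Promoter sequences of members are shown first, because many of these genes changed together. CACGTG is the core E-box, a palindrome (the same on both strands) that basic helix-loop-helix factors such as Myc with Max are known to bind. RefSeq promoters (GRCm38.p6, from 250 bases before to 50 after the transcription start) were matched by symbol for 51 of the 59 members. CACGTG was present in 10 of them (19.6%), against 8.09% of the 27025 genes with a promoter and 11.2% of the 11510 of these that are in the expression table. The 3 members with this motif and the highest change after serum, and the member without it that changed most, are printed 5′ to 3′ on the gene's strand with the motif in capitals. Nop2 and Rrp9 are given as the 250 bases before the start, and Mybbp1a and Nle1 as a short stretch around a motif that lies in the transcribed part.
Nop2, plus strand, chr6:125131633-125131882: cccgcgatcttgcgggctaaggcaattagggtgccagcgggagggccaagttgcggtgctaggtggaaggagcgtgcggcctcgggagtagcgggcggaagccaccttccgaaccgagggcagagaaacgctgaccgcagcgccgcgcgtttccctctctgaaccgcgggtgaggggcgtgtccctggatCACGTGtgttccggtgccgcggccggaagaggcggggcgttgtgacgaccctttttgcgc
Mybbp1a, plus strand, chr11:72441355-72441376: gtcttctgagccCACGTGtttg
Nle1, minus strand, chr11:82908355-82908384: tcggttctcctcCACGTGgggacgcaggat
Rrp9, plus strand, chr9:106477059-106477308: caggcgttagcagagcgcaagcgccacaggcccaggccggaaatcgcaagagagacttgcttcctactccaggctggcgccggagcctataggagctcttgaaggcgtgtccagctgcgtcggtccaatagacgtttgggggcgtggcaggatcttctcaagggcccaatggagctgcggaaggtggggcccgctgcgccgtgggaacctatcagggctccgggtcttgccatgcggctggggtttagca
The motif began 60 bases before the start in Nop2, 40 bases after it in Mybbp1a and 23 bases after it in Nle1. The other 7 members with the motif were Utp18, Tsr1, Wdr43, Pno1, Pes1, Utp20 and Rrn3. The median change of the 10 members with the motif was 0.80 on the log2 scale, averaged over the 8 windows, and that of the 41 without it was 0.85. A match is a description of the letters in this window and was not tested as a binding site.

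Almost all of these genes rose after serum, and most were first called higher at 2 to 3 h. In Cycle 1, the first of 2 successive libraries at 1.5-fold over starved or more came by 1.5 h for 22 members. It came by 3 h for 51. In Cycle 2 these were 1 and 29. Members higher than in starved cells numbered 5 at 1 to 1.5 h (5.62% of all genes were higher), 51 at 2 to 3 h (14.0%) and 57 of 59 at 24 to 27 h (22.0%). The median member was 0.82 higher on the log2 scale at 2 to 3 h and 1.01 higher at 24 to 27 h, where 1 is a 2-fold change. The median of all 15895 genes was -0.32 and -0.17 in the same windows. The one member that was not called in any window was Ubtf, and Noc3l was the one that fell, at 1 to 1.5 h.

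The comparison with starved cells used limma on log2(level + 1) over all 15895 genes, with Benjamini-Hochberg adjusted p under 0.05 as the threshold for a call, and every change below is on this log2 scale. Between the first and the last windows the count was 56 at 4 to 6 h (18.4% of all genes), 56 at 7 to 10 h (20.4%), 56 at 11 to 14 h (22.2%), 56 at 15 to 18 h (22.4%) and 57 at 19 to 23 h (24.2%). Members called higher by more than 2-fold numbered 23 at 2 to 3 h (6.66% of all genes) and 32 at 24 to 27 h (6.13%). Across the 8 windows, 44 members were higher in 7 of them, 5 in all 8, 5 in 6, 2 in 5, 2 in 3 and 1 in none. All genes as a whole lay below starved on this scale, and when libraries were rescaled by the trimmed mean of M values (TMM) the all-gene median was -0.07 at 2 to 3 h and -0.08 at 24 to 27 h. The member median less the all-gene median was 1.14 and 1.18 as deposited and 1.15 and 1.19 after that rescaling.

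**Figure D1:**
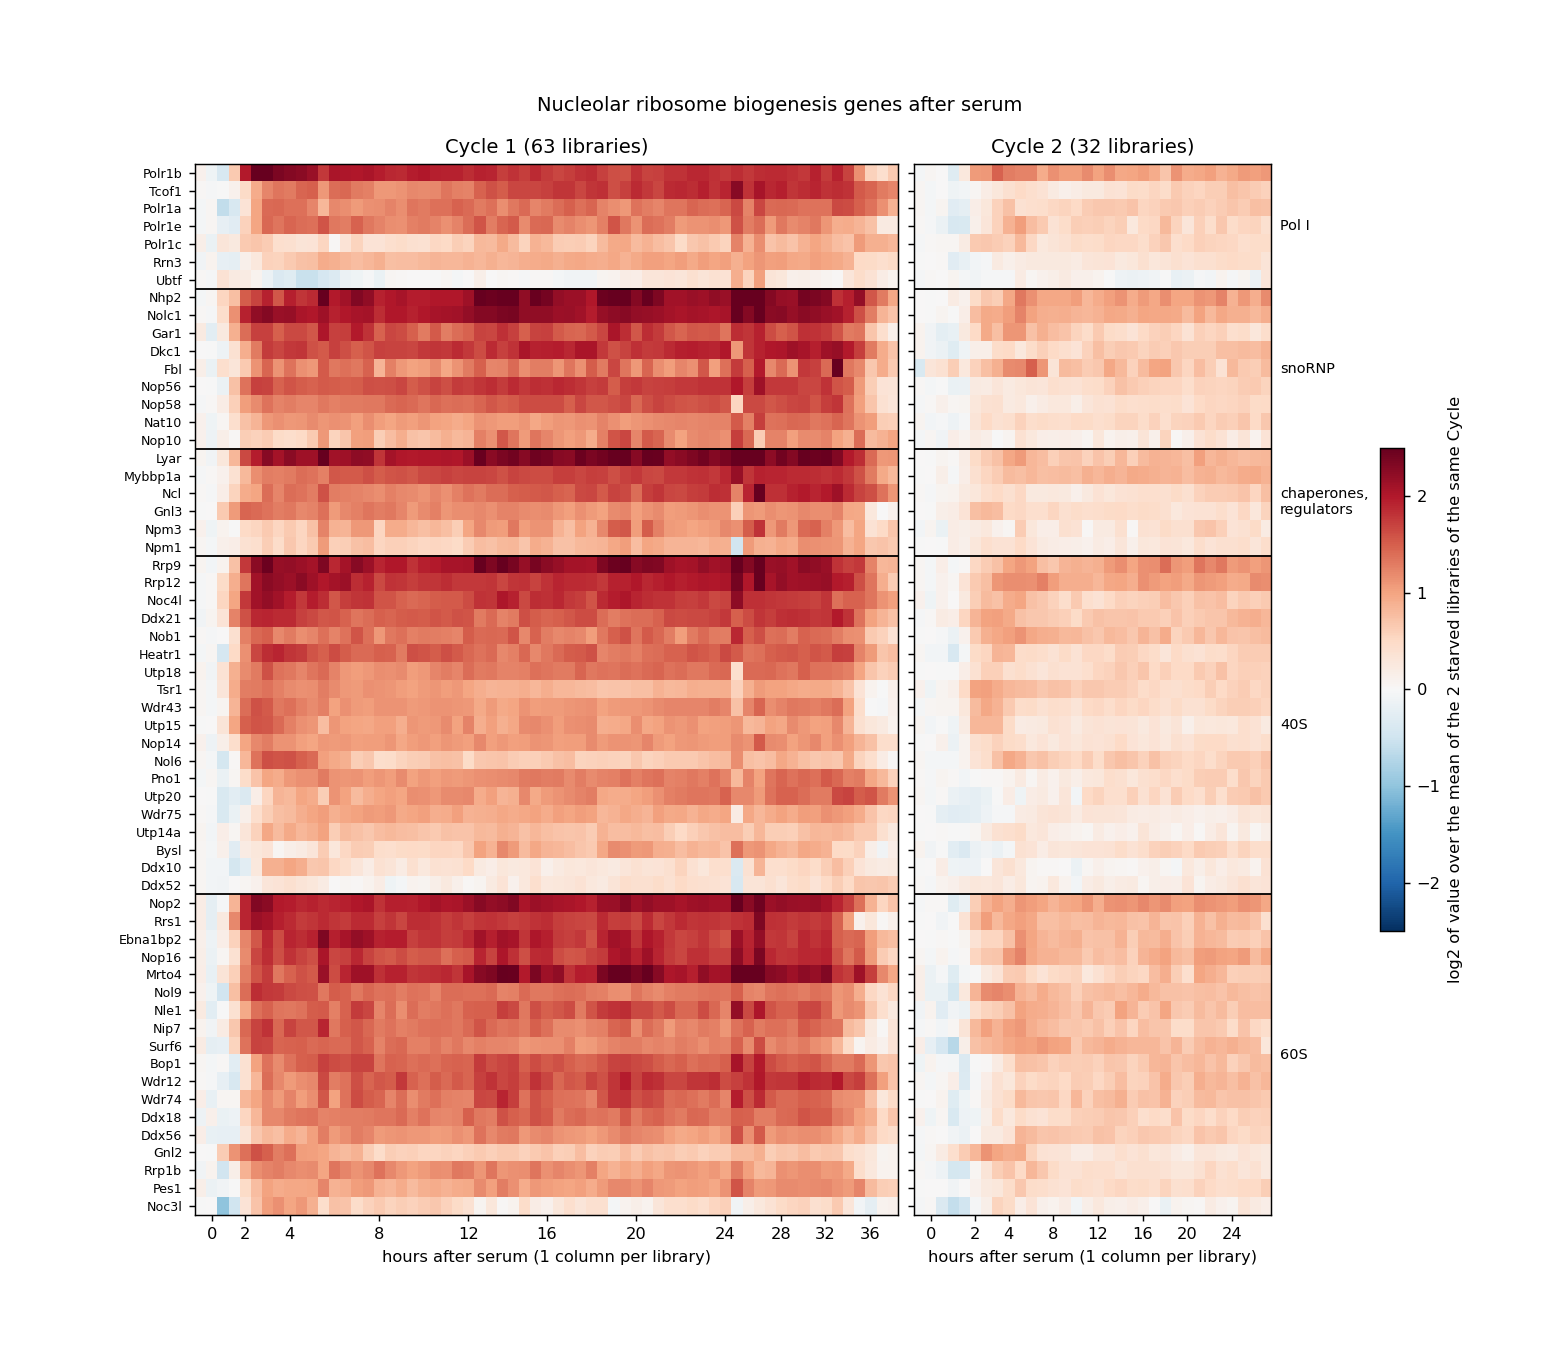
Heat map of the 59 members (lines, grouped by role) over the libraries of Cycle 1 and Cycle 2 (columns, hours after serum), coloured by log2 change from the starved mean of the same Cycle. Nearly every member was higher by 3 h and stayed so to 27 h, with paler colours in Cycle 2 and at the last hours of Cycle 1.

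The groups separated completely at 24 to 27 h for 57 members, with all 8 libraries above all 4 starved libraries, while 14.7% of all genes were separated in this way. The exceptions were Ubtf and Noc3l. Within Cycle 1 alone, 59 of 59 members had all 4 libraries of these hours above both starved ones, against 27.3% of all genes. Within Cycle 2 alone 58 of 59 did, with Ubtf as the exception, against 24.1% of all genes. Together the members made up 0.368% and 0.351% of the listed signal in starved Cycle 1, 0.907% at 3 h and 0.952% at 24 h. In Cycle 2 they made up 0.516% and 0.505% in starved cells, 0.754% at 3 h and 0.766% at 24 h.

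Levels in single libraries are given below in a fixed order. The 4 starved values are those at -1 h and 0 h of Cycle 1 and then of Cycle 2, and the values at 24 to 27 h are those at 24, 25, 26 and 27 h of each Cycle.

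RNA polymerase I transcription genes moved by a median of 0.63 at 2 to 3 h, with 5 of 7 members higher, and by 0.84 at 24 to 27 h, with 6 of 7 higher. The group held both one of the steepest rises and the flattest gene. Polr1b, the second largest subunit of the polymerase (chr2:128926731-128952330 in mm9, plus strand), had levels of 152, 130.4, 189 and 201 in the starved libraries. At 2, 2.5 and 3 h its levels were 559, 828 and 865 in Cycle 1 and 407, 411 and 541 in Cycle 2, all above every starved library. Its change at 2 to 3 h was 1.79 (SE 0.198, limma adjusted p = 2.54e-09), the largest of any member in that window, and it eased to 1.42 at 24 to 27 h. Polr1a, the largest subunit, rose more slowly. Its levels were 425, 451, 651 and 605 in the starved libraries, and at 24 to 27 h they were 1202, 1041, 1403 and 1165 in Cycle 1 and 1017, 978, 1053 and 1045 in Cycle 2, with no overlap. Its change was -0.38 at 1 to 1.5 h, which was not called, 0.63 at 2 to 3 h and 1.08 at 24 to 27 h.

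Tcof1 encodes treacle, which links RNA polymerase I to rRNA modification. Its levels were 467, 448, 839 and 791 in the starved libraries and 1716, 1606, 1921 and 1686 in Cycle 1 and 1370.0, 1318, 1273 and 1218 in Cycle 2 at 24 to 27 h, so the starved Cycle 2 libraries lay between the other groups. The change grew from 0.52 at 2 to 3 h to 1.29 at 24 to 27 h (SE 0.173, limma adjusted p = 1.62e-07). Rrn3, the initiation factor that carries the polymerase to the promoter, was not called at 2 to 3 h, with 0.18, and was 0.74 higher at 24 to 27 h (limma adjusted p = 2.23e-07). Its levels were 517, 578, 721 and 736 in the starved libraries and then 1111, 1097, 1179 and 1121 in Cycle 1 and 1025, 1001, 1006 and 907 in Cycle 2. Rrn3 and Polr1e, another subunit, were among the few members that still rose after 3 h, by 0.30 (SE 0.095, adjusted p = 0.0153) and 0.47 (SE 0.163, adjusted p = 0.0249) from 2 to 3 h to 4 to 6 h in limma.

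Ubtf encodes UBF, the factor that holds ribosomal DNA in an open state (chr11:102165874-102181056 in mm9, minus strand). Its levels were 1632, 1581, 1378 and 1446 in the starved libraries, and at 24 to 27 h they were 2065, 2374, 3267 and 2007 in Cycle 1 and 1375, 1484, 1269 and 1737 in Cycle 2. The Cycle 2 values overlapped the starved ones, whereas the Cycle 1 values lay above them, the highest being the 26 h library that stood apart. Its change over the windows ranged from -0.16 at 4 to 6 h to 0.31 at 24 to 27 h, with a limma adjusted p of 0.151 in the latter, and its sign in the windows between 2 h and 23 h depended on the scaling or on the libraries used. In a separate fit by Cycle and window, it was called lower in Cycle 1 at 4 to 6 h (-0.40) and higher at 24 to 27 h (0.57).

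snoRNP and modification genes rose by a median of 0.91 at 2 to 3 h (8 of 9 higher) and of 1.12 at 24 to 27 h (9 of 9). Averaged over the 8 windows, the steepest were Nhp2, Nolc1 and Gar1. Nhp2 is a core protein of H/ACA snoRNPs, which guide pseudouridylation (chr11:51433237-51437216 in mm9, plus strand). Its levels were 286, 302, 535 and 527 in the starved libraries, and 1318, 1719, 2033 and 1436 in Cycle 1 and 967, 1122, 994 and 1212 in Cycle 2 at 24 to 27 h, so that all libraries of the later window were above all starved ones. The change was 1.73 (SE 0.197, limma adjusted p = 7.15e-09). Nolc1, a chaperone of snoRNPs (chr19:46150353-46160018 in mm9, plus strand), went from 658, 625, 1126 and 1106 in the starved libraries to 2675, 3141, 4411 and 3066 in Cycle 1 and 2068, 2069, 1952 and 2096 in Cycle 2. Its change was already 1.51 at 2 to 3 h and was 1.61 at 24 to 27 h. Gar1, another H/ACA core protein, changed by 1.18 at 2 to 3 h, 1.32 at 4 to 6 h and 1.04 at 24 to 27 h, higher in each case.

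The smallest changes of this group, averaged over the 8 windows, were in Nop10 and Nat10. Nop10, the smallest H/ACA protein, was not called until 7 to 10 h, when it was 0.48 higher, and its levels went from 209, 177, 277 and 295 in the starved libraries to 424, 524, 301 and 456 in Cycle 1 and 325, 357, 303 and 360.2 in Cycle 2. The lowest of its Cycle 1 values was that of the 26 h library. Nat10, the enzyme that acetylates cytidines in rRNA, was 0.65 higher at 2 to 3 h and 1.01 higher at 24 to 27 h. The C/D snoRNP proteins Nop56 and Nop58 and the methyltransferase Fbl, which act as one particle, were 1.23, 1.06 and 1.12 higher at 24 to 27 h (Nop56 was chosen after its values were seen). Fbl is uncertain, since 84.9% of its 50-base stretches have another copy in the genome.

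**Figure D2:**
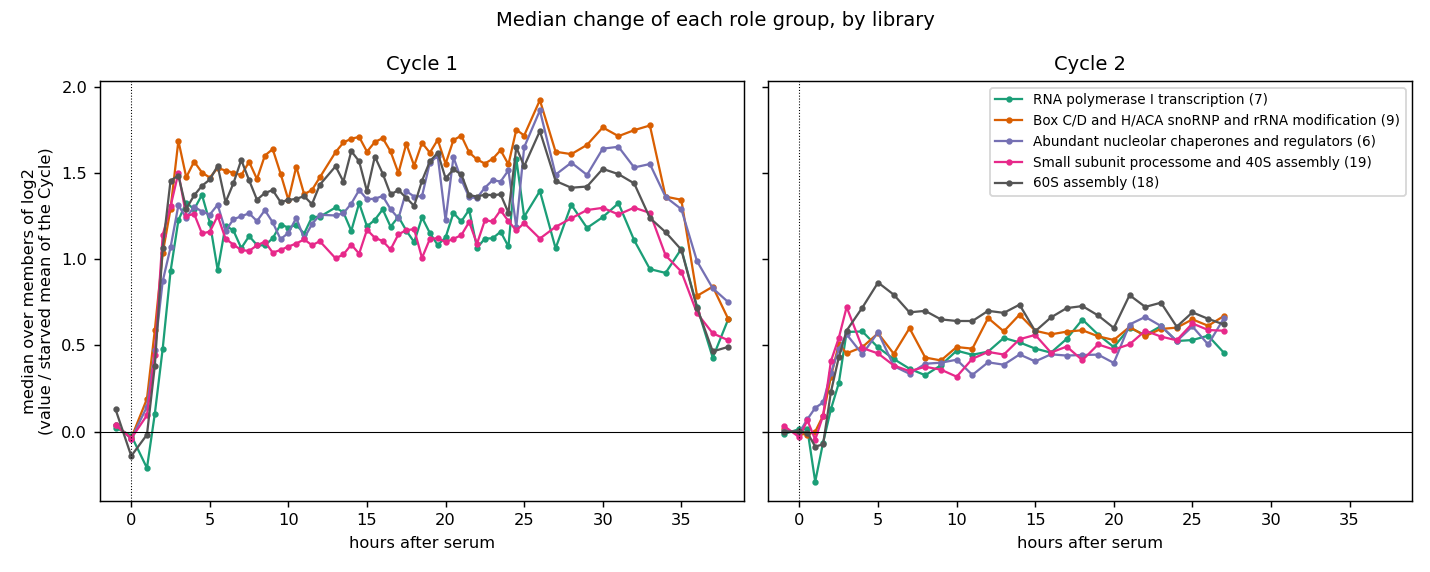
Median log2 change from starved (y axis) of each of the 5 role groups over the hours after serum (x axis), with Cycle 1 and Cycle 2 in separate panels. All 5 groups turned upwards by 3 h in both Cycles, and the Cycle 2 lines stay closer to 0.

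Abundant chaperones and regulators rose by a median of 0.78 at 2 to 3 h (5 of 6 higher) and of 1.11 at 24 to 27 h (6 of 6). Lyar, a regulator of rRNA processing, changed the most of these on average over the 8 windows (chr5:38611709-38625545 in mm9, plus strand). Its levels were 219, 197, 416 and 410.4 in the starved libraries, and 1079, 1163, 1634 and 984 in Cycle 1 and 739, 704, 721 and 734 in Cycle 2 at 24 to 27 h. The lowest of the later libraries was above the highest starved one, and the change was 1.66 (SE 0.241, limma adjusted p = 6.45e-07). Mybbp1a, a nucleolar protein that binds Myb and the polymerase I machinery, went from 1416, 1468, 2134 and 2179.6 in the starved libraries to 5334, 5005, 5455 and 5410.2 in Cycle 1 and 3871, 4088, 4136 and 3944 in Cycle 2, a change of 1.39. Ncl encodes nucleolin, among the most abundant nucleolar proteins (chr1:88241294-88256030 in mm9, minus strand). Its levels were 4752, 4589.9, 8295 and 7992 in the starved libraries, then 16653, 17376, 27322 and 16610.3 in Cycle 1 and 12801, 13290.5, 11787 and 13719.6 in Cycle 2 at 24 to 27 h, the 26 h library of Cycle 1 being far above the other 3. Its change rose from 0.75 at 2 to 3 h to 1.34 at 24 to 27 h.

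Npm1, nucleophosmin, and its relative Npm3 were the members of this group with the smallest changes averaged over the 8 windows. Npm1 levels were 1754, 1620.2, 1852 and 1857 in the starved libraries and 3104, 3545, 3117 and 3077 in Cycle 1 and 2443, 2528, 2280.3 and 2529 in Cycle 2 at 24 to 27 h, with no overlap, and its change was 0.41 at 2 to 3 h and 0.66 at 24 to 27 h (SE 0.136, limma adjusted p = 0.000108). Npm3 was not called at 2 to 3 h (0.38) and was 0.88 higher at 24 to 27 h. Reads from Npm1 and Npm3 may be shared with copies elsewhere, as 48.9% and 58.0% of their 50-base stretches occur again in the genome.

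Small subunit processome and 40S assembly genes rose by a median of 0.94 at 2 to 3 h (15 of 19 higher) and of 0.89 at 24 to 27 h (19 of 19). Rrp9, which binds the U3 snoRNA (chr9:106378294-106387755 in mm9, plus strand, promoter above), had levels of 209, 191, 321 and 298 in the starved libraries, and of 880.1, 981, 1454 and 891 in Cycle 1 and 652, 672, 635 and 664 in Cycle 2 at 24 to 27 h. No later library overlapped the starved ones, and the change was 1.72 (SE 0.253, limma adjusted p = 8.26e-07). Rrp12, a factor of subunit maturation and export, went from 176, 182, 283 and 267 in the starved libraries to 740.0, 713, 1053 and 750.2 in Cycle 1 and 523, 531, 621 and 618 in Cycle 2, a change of 1.61. Noc4l, a partner of Nop14 in the processome, was 1.37 higher at 2 to 3 h and 1.20 higher at 24 to 27 h.

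The smallest changes among the 40S genes, averaged over the 8 windows, were in the RNA helicases Ddx52 and Ddx10. Ddx52 levels were 484, 446, 474 and 452 in the starved libraries and 590.0, 583, 581 and 611 in Cycle 1 and 569, 609.7, 568 and 590.2 in Cycle 2, a narrow step that did not overlap, and its change was 0.34 at 24 to 27 h (limma adjusted p = 0.000313). Ddx10 was 0.49 higher at 4 to 6 h, 0.14 at 7 to 10 h, which was not called, and 0.37 higher at 24 to 27 h. Bysl, a 40S assembly factor that was chosen after its values were seen, was called only from 7 to 10 h on (0.39) and reached 0.77 at 19 to 23 h. Its exons overlap those of Ccnd3 on the opposite strand, and because the reads were counted without regard to strand, reads of the pair cannot be told apart.

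60S assembly genes rose by a median of 0.88 at 2 to 3 h (18 of 18 higher) and of 1.07 at 24 to 27 h (17 of 18). Nop2, the methyltransferase that modifies 28S rRNA (chr6:125081901-125094771 in mm9, plus strand), had levels of 502, 376, 692 and 720.2 in the starved libraries. At 24 to 27 h they were 1891, 2085, 2352 and 1941 in Cycle 1 and 1457, 1552, 1525 and 1381 in Cycle 2, with no overlap, and its change was 1.65 (SE 0.183, limma adjusted p = 3.82e-09). Rrs1, which helps place the 5S particle in the pre-60S (chr1:9535489-9537535 in mm9, plus strand), changed most at 2 to 3 h, by 1.46. Its levels at 2, 2.5 and 3 h were 789.8, 925 and 889.8 in Cycle 1 and 574, 697 and 593 in Cycle 2, against 239, 181, 337 and 342 in the starved libraries. Ebna1bp2, a scaffold of early pre-60S particles, peaked later, with 1.02 at 2 to 3 h and 1.44 at 4 to 6 h.

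Pes1 and Noc3l changed least among the 60S genes when averaged over the 8 windows. Pes1, which with Bop1 and Wdr12 forms the PeBoW complex, was 0.48 higher at 2 to 3 h and 0.82 higher at 24 to 27 h. Its partners Bop1 and Wdr12 were 1.20 and 1.29 higher in the latter window (Bop1 was chosen after its values were seen). Noc3l, a factor of pre-60S transport, fell before it rose. Its levels were 307, 313, 342 and 354 in the starved libraries, 153 and 218 at 1 and 1.5 h in Cycle 1 and 232 and 251 in Cycle 2, so every library at these hours lay below the starved ones. Its change was -0.64 at 1 to 1.5 h (SE 0.146, limma adjusted p = 0.00111), the only member among the 15.3% of all genes that were lower in this window. It was 0.60 higher at 4 to 6 h and 0.27 at 24 to 27 h, which was not called as deposited and was 0.37 and called with TMM.

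**Figure D3:**
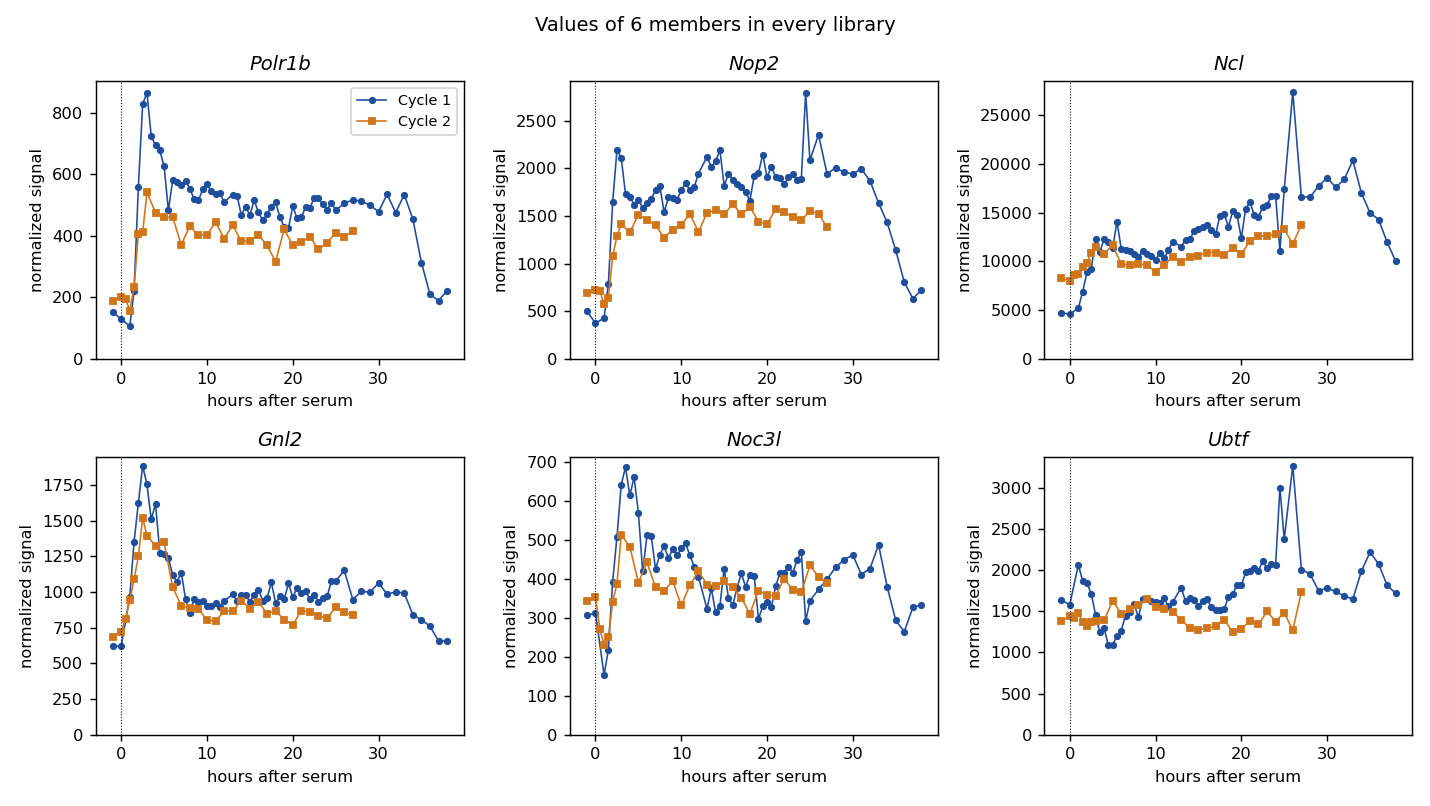
Levels (y axis, normalized signal in reads per 10000000) of Polr1b, Nop2, Ncl, Gnl2, Noc3l and Ubtf in every library of Cycle 1 and Cycle 2 against hours after serum (x axis). Polr1b and Nop2 step up by 3 h, Gnl2 peaks early and declines, Noc3l dips at 1 h before rising, Ncl climbs slowly, and Ubtf stays near its starved level in Cycle 2.

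The 5 members called higher as early as 1 to 1.5 h were Gnl2, Ddx21, Gnl3, Tsr1 and Utp18. Gnl2, a GTPase of 60S assembly, was 0.70 higher (SE 0.115, limma adjusted p = 1.49e-05). Its levels at 1 and 1.5 h were 968 and 1352 in Cycle 1 and 943 and 1089 in Cycle 2, against 624, 620.0, 682 and 723 in the starved libraries, with no overlap. The helicase Ddx21 was 0.58 higher and Gnl3, nucleostemin, 0.56 higher. Tsr1 and Utp18, both of the 40S pathway, were 0.47 and 0.35 higher (Ddx21, Tsr1 and Utp18 were chosen after their values were seen). This count is not stable. It was 10 with the Cycle as a replicate block. In a separate fit by Cycle and window, it was 1 for Cycle 2 and 15 for Cycle 1.

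The main step lay between 1.5 h and 3 h, and few members were called in the steps after 6 h. From 1 to 1.5 h to 2 to 3 h, 51 members rose and none fell in limma, against 11.2% of all genes that rose. From 2 to 3 h to 4 to 6 h, 7 members rose, against 20.7% of all genes, and 3 fell, against 11.2%. With the Cycle as a replicate block these were 13 and 5. The 7 that rose were Polr1e, Rrn3, Utp20, Wdr75, Ddx10, Bop1 and Ddx56, by 0.30 to 0.57. From 4 to 6 h to 7 to 10 h no member rose and 3 fell, against 6.00% of all genes that fell. In the 4 later steps limma called 0 members, with 1, 0, 0 and 1 at an unadjusted p under 0.05. With edgeR and DESeq2, 0 were called as well. None of these fits held the Cycle as a replicate block, and these steps were not counted with it.

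The members that fell between windows had an early peak. Utp15, a processome protein, fell from 2 to 3 h to 4 to 6 h, with a change of -0.45 (SE 0.109, adjusted p = 0.00147) in limma. Its levels at 2, 2.5 and 3 h were 764, 807 and 792 in Cycle 1 and 712, 713 and 718 in Cycle 2, and at 4, 5 and 6 h 648, 582 and 584 and 564, 467 and 469. Gnl2 declined in both steps, with -0.29 (SE 0.0938, adjusted p = 0.0156) and then -0.49 (SE 0.0878, adjusted p = 0.000149) in limma, and stayed 0.50 above starved at 24 to 27 h. Nol6, a processome protein, changed by -0.50 (SE 0.138, adjusted p = 0.0103) from 4 to 6 h to 7 to 10 h in limma, with -0.76 in Cycle 1 and -0.23 in Cycle 2. Wdr43 and Ddx10 were the other two that fell in one of these steps.

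The window of the highest mean differed between members, but few steps after 6 h were called, so a late maximum is not told apart from a plateau. The window with the highest mean was 2 to 3 h for 13 members, 4 to 6 h for 13, 7 to 10 h for 1, 11 to 14 h for 3, 19 to 23 h for 5 and 24 to 27 h for 24. In running medians of 3 libraries, 18 members peaked by 6 h and 38 from 19 h on in Cycle 1, with a median of 25 h, and 31 and 20 in Cycle 2, with a median of 6 h. The Cycle 1 median moved to 19 h without the 24.5 h library and to 15 h over the hours that both Cycles share, so it depends on which libraries are used. The rise was also dated by the first of 2 successive libraries at 1.5-fold over the starved mean of the same Cycle. This hour was a median of 2 h in Cycle 1, over the 58 members with such a pair, and 2.5 h in Cycle 2, over 47. The 12 without such a pair in Cycle 2 included Rrn3, Ubtf, Nop58, Npm1 and Pes1.

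The members differed widely in level. Per kilobase of the longest annotated transcript, starved levels were highest for Npm1 at 1085 ± 68.1 (SD, n = 4), Ncl at 776 ± 243, Nop58 at 620 ± 197, Gnl3 at 505 ± 108 and Mybbp1a at 413 ± 94.9. Nucleophosmin and nucleolin are the abundant structural proteins of this set, but for Ncl that transcript is 8257 bases long, and a shorter one would give a higher value. The order of neighbours from Ncl to Mybbp1a is within their spread. Lowest were Fbl at 37.3 ± 7.89, Polr1b at 42.0 ± 8.18, Rrp12 at 52.6 ± 12.9, Wdr12 at 54.8 ± 13.3 and Polr1e at 57.3 ± 7.69, values that also overlap one another. The levels of Npm1 and Wdr12 are means of several transcripts, so dividing by the longest one is a rougher measure for them. The part of its repeated stretches in the low level of Fbl was not tested.

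The 2 Cycles differed in both the starved state and the response. In starved cells 33 members were higher in Cycle 2 and none lower, against 12.9% of all genes that were higher, and the median member was 1.42-fold higher. After serum the order turned: from 2 h on, the median ratio of Cycle 2 to Cycle 1 was below 1 at all 27 shared hours, between 0.701 and 0.918. The change from starved was therefore smaller in Cycle 2, with medians of 0.48 against 1.19 at 2 to 3 h and 0.61 against 1.40 at 24 to 27 h. The starved libraries enter both the starved difference and the difference in response, so these counts are not independent of each other.

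The difference in response was tested by limma as the change in Cycle 2 less the change in Cycle 1. It was called lower for 36 members at 2 to 3 h (4.96% of all genes), 33 at 4 to 6 h (6.57%), 44 at 7 to 10 h (10.1%) and 47 at 11 to 14 h (12.0%). At 15 to 18 h it was called for 46 (12.4%), at 19 to 23 h for 47 (12.8%) and at 24 to 27 h for 50 (13.0%). At 1 to 1.5 h limma called 0 members in either direction, with 8 at an unadjusted p under 0.05. One member, Ubtf, had a larger response in Cycle 2 at 4 to 6 h, among 8.00% of all genes. Without the -1 h library of Cycle 2 the count at 2 to 3 h was 23, and without the 0 h library of Cycle 1 it was 24. By Cycle, 59 members were called higher than starved at 24 to 27 h in Cycle 1 (27.0% of all genes) and 52 in Cycle 2 (14.9%). Among the members named with values, Gar1 (0.40), Npm3 (0.35), Nop10 (0.23) and Ddx10 (0.23) were not called there in Cycle 2. Over both Cycles they were called in that window. Without the 26 h library of Cycle 1, 57 members were higher than starved at 24 to 27 h and 48 had a smaller response in Cycle 2, Gnl2 and Surf6 being no longer called.

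The largest differences were in Mrto4, Lyar and Nolc1. Mrto4, a factor that holds a place on the pre-60S stalk, had levels of 97.7, 77.5, 192 and 157 in the starved libraries and 377, 496, 597 and 422 in Cycle 1 and 263, 266, 268 and 270.1 in Cycle 2 at 24 to 27 h. It rose by 2.41 in Cycle 1 and 0.62 in Cycle 2, a difference of -1.79 (SE 0.263, limma adjusted p = 5.37e-07). In Lyar the rise was 2.51 against 0.81 (difference -1.70, SE 0.234, limma adjusted p = 1.21e-07), and in starved cells it was 0.99 higher in Cycle 2. In Nolc1 it was 2.35 against 0.87 (difference -1.47, SE 0.239, limma adjusted p = 3.82e-06). Ddx52 and Nol6 were among the 9 members whose responses at 24 to 27 h were not called different, with differences of -0.01 (SE 0.123) and -0.10 (SE 0.212).

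**Figure D4:**
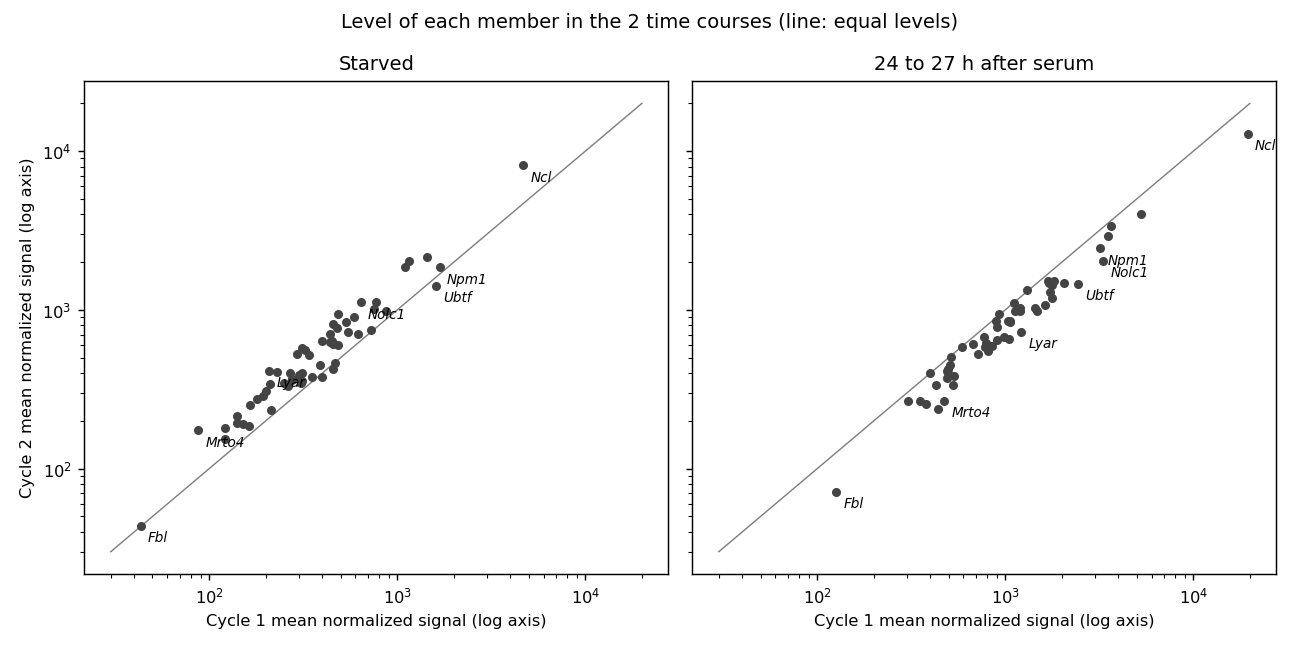
Level of each of the 59 members in Cycle 2 (y axis) against Cycle 1 (x axis), reads per 10000000 on log axes, in starved cells and at 24 to 27 h, with a line of equality. Starved points lie mostly above the line (55 of 59) and those at 24 to 27 h mostly below it (56 of 59).

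Markers of other cell types differed between the Cycles as well. Summed macrophage and leukocyte markers were 616 to 927 at 24 to 27 h in Cycle 1 (24.5 h included) and 2082 to 2357 in Cycle 2. Summed fibroblast markers were 510693 and 536681 in starved Cycle 1 against 389245 and 411372 in starved Cycle 2, and 198430 to 232658 against 201051 to 216231 at 24 to 27 h. In starved Cycle 1 against starved Cycle 2, epithelial markers summed to 284 to 305 against 109 to 114. Endothelial markers summed to 236 to 272 against 176 to 224 and neural markers to 658 to 689 against 1084 to 1109. Nes ran from 549 to 914 over these libraries and made up most of each neural sum. At 24 to 27 h the summed levels were 99.4 to 227 against 76.1 to 97.9 for epithelial markers, 1669 to 3221 against 1724 to 1795 for neural, 42.2 to 82.9 against 72.7 to 91.8 for endothelial and 839 to 1442 against 1053 to 1139 for muscle. In these bulk libraries a different mix of cells cannot be told apart from a different level per cell, and the part of the markers in the difference between Cycles was not tested.

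The last hours were sampled in Cycle 1 alone, so these results rest on 1 time course. At 28 to 33 h (n = 6), 58 members were higher than in the starved libraries of Cycle 1, against 27.2% of all genes. Compared with 24 to 27 h, 1 member was lower, Ubtf with a change of -0.44 (SE 0.0853, limma adjusted p = 0.00643), among 0.510% of all genes. Without the 26 h library its change was -0.29 (SE 0.0792, limma adjusted p = 0.190), so that 0 members were called. At 34 to 38 h (n = 5) the levels came down. Here 53 members were still higher than starved (25.7% of all genes), by a median of 0.79, while 51 were lower than at 24 to 27 h (16.8% of all genes) and 1 was higher (28.4%). The median change was -0.58 against 0.10 for all genes, and at 34, 35, 36, 37 and 38 h the median member stood at 2.27, 2.17, 1.64, 1.45 and 1.50 times its starved level.

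Rrs1 and Nop2, both of the 60S group, fell the most. Rrs1 had levels of 704, 754, 1058 and 739 at 24, 25, 26 and 27 h and of 425, 227, 254, 213 and 228 at 34, 35, 36, 37 and 38 h, so that the windows did not overlap. Its change was -1.62 (SE 0.128, limma adjusted p = 1.08e-14). Nop2 went from 1891, 2085, 2352 and 1941 to 1433, 1142, 807, 635 and 723, a change of -1.19. Rrp9, Nolc1 and Lyar changed by -1.08, -1.07 and -1.03. Nop56 and Surf6, the latter a nucleolar protein of the 60S group, changed by -1.08 and -1.07 (Surf6 was chosen after its values were seen). Ddx52 was the member that rose, by 0.29 (limma adjusted p = 0.000315).

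The 7 members called in neither direction at 34 to 38 h against 24 to 27 h were Polr1a, Polr1c, Nop10, Npm1, Utp20, Utp14a and Ddx10. The count of members that fell was 46 to 53 when each of the 5 late libraries was left out in turn, and 49 without the 26 h library, where Fbl (-0.40, from -0.55) and Ubtf (-0.13, from -0.29) were no longer called and Ncl moved from -0.50 to -0.33. Summed fibroblast markers were 200242 to 246956 in this window and summed macrophage markers 499 to 648, against 198430 to 232658 and 616 to 927 at 24 to 27 h. Neural markers summed to 998 to 1520, muscle to 518 to 823, epithelial to 37.0 to 94.0 and endothelial to 37.2 to 74.99 at 34 to 38 h, and their part in the fall was not tested. Library depth in this window was 5105646 to 12040002 reads.

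**Figure D5:**
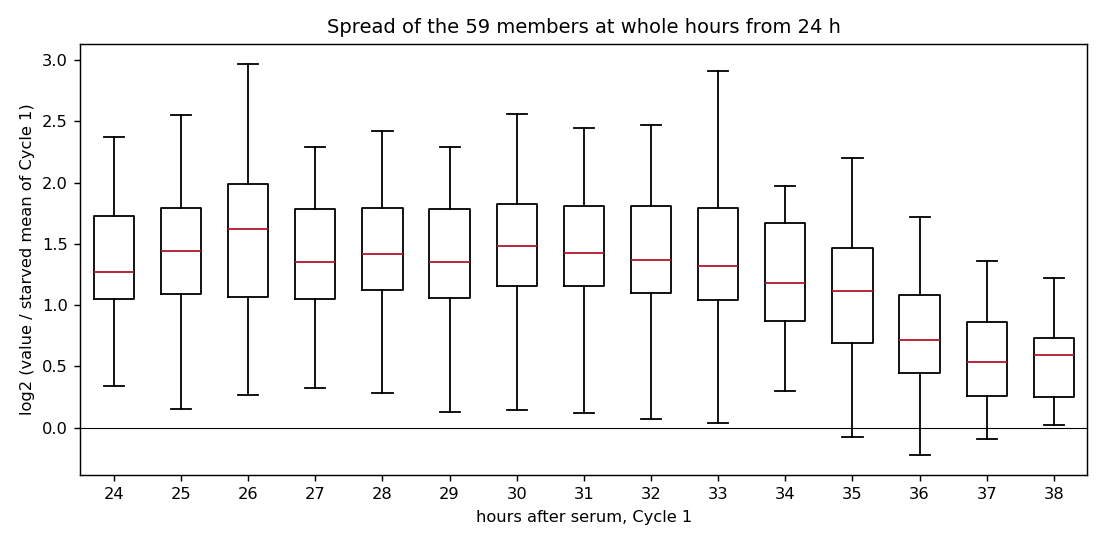
Log2 change of each member from the starved mean of Cycle 1 (y axis) at the whole hours from 24 h to 38 h (x axis). Boxes are quartiles with the median and whiskers the full range over 59 members. The median is 1.12 or more up to 35 h and 0.71 or less from 36 h on.

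Other genes of the pathway, outside the 60, were called mostly in the same direction. Of 82 further ribosome biogenesis genes, 44 were higher and 7 lower at 2 to 3 h (median 0.41), against 14.0% and 38.7% of all genes, and 72 were higher at 24 to 27 h (median 0.66), against 22.0%. Grwd1 and Eif6, both of the 60S pathway, had the highest mean changes of them, at 1.61 and 1.10, and Taf1b, a promoter factor of RNA polymerase I, had the lowest at -0.22 (all 3 chosen after their values were seen). Of 84 cytosolic ribosomal protein genes, 12 were higher at 2 to 3 h (median 0.33) and 22 at 24 to 27 h (median 0.32). These shares called higher were near those of all genes, 14.0% and 22.0%. Only 1 of the 84 was lower at 2 to 3 h, against 38.7% of all genes. The median of all genes was -0.32 and -0.17 in these windows. Of 75 mitochondrial ribosomal protein genes, 3 were higher and 20 lower at 2 to 3 h (median -0.17). The shares of all genes were 14.0% and 38.7%. At 24 to 27 h, 54 of the 75 were higher (median 0.48), against 22.0% of all genes. At 34 to 38 h of Cycle 1, 63 of the 82 were lower than at 24 to 27 h (median -0.43), against 16.8% of all genes, as were 25 of the 84 (median -0.26) and 30 of the 75 (median -0.26).

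Some levels may include reads of other genes. In 13 members over 5% of the 50-base stretches have another copy in the genome, led by Fbl, Ddx18 (68.8%), Npm3, Npm1 and Nop56 (41.8%). The exons of 18 members overlap a gene on the opposite strand, among them Nop56 with Idh3b, Mybbp1a with Spns2 and Rrp9 with Parp3, and 7 members carry snoRNA genes in their introns.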

How the data were processed

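RNA was measured in primary MEFs by single-end 50-base sequencing of polyA libraries. The labels and methods name CASAVA, STAR and HOMER with build mm9, and versions are not given in the sources used here. The authors deposited, per gene, a signal scaled to 10000000 reads per library, counted on both strands, with some genes given as the mean of several transcripts (3291 of 15895 rows, 8 of 59 members). One of the 96 columns, whose name can be read as 2.5 h or 12.5 h of Cycle 1, was not used. Values of rows with 1 transcript were whole multiples of one read in 99.9% to 100% of low values (within 0.1 read), which gave depths of 5067426 to 14500245 reads. These reads served for edgeR 4.0.16 and DESeq2 1.42.0 as alternatives.

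limma 3.58.1 in R 4.3.3 was fitted to log2(value + 1) over all rows, with each hour as a group (both Cycles as its samples) for the comparison with starved cells, and with Cycle and window as the group for the Cycles and the hours after 27 h. Adjusted p is Benjamini-Hochberg over 15895 rows. In the second fit the hours of a window were its samples. Its error was pooled over both Cycles, and results for 1 Cycle alone were read from it. Scripts were tested on simulated data. Medians, counts and plots were made with pandas 2.3.3, numpy 2.4.6 and matplotlib 3.10.9 under Python 3.11.15.

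A Cycle number marks one time course and so pairs the libraries. The differences between Cycles correlated across genes with a median of 0.303 over 406 pairs of hours (0.00531 to 0.681, with 394 over 0.1). The Cycle was a replicate block in an alternative. Starved libraries differed beyond sampling noise, with a chi-square per degree of freedom of 14.3 and 13.2 within a Cycle and 49.4 to 72.8 between the Cycles.

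The members, lists and tests were chosen with earlier results of these data known. Members named with values were the 3 highest and 2 lowest mean changes per role, the 3 largest falls between windows, those lower or called in no window, the 3 largest Cycle differences, and the 5 highest and 5 lowest per kilobase. Alternatives were other pseudocounts, filters, scalings and tools, and leaving out libraries. Promoters came from RefSeq (GRCm38.p6) and gene positions from an annotation of NCBIM37, the same assembly as mm9.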

Additional observations from a re-analysis of the deposited data

Results flagged for a closer look

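The difference in response between the Cycles was tested directly and is listed for a closer look. The change from starved was smaller in Cycle 2 for 36 members at 2 to 3 h, 33 at 4 to 6 h, 44 at 7 to 10 h, 47 at 11 to 14 h, 46 at 15 to 18 h, 47 at 19 to 23 h and 50 at 24 to 27 h (limma, Benjamini-Hochberg adjusted p under 0.05). The shares of all genes called lower in these windows, in the same order, were 4.96%, 6.57%, 10.1%, 12.0%, 12.4%, 12.8% and 13.0%. The members with the largest differences at 24 to 27 h were Mrto4 at -1.79, Lyar at -1.70 and Nolc1 at -1.47 on the log2 scale. Each Cycle is one time course, so the Cycle and anything else that differed between the courses cannot be told apart.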

How the results depend on the processing

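Counts of members kept within 1.5 times of the reported count in 229 of 261 recomputations. The leave-outs in this section include each Cycle alone, which was read from the fit by Cycle and window. The count at 1 to 1.5 h was the least stable: 11 with TMM, 10 with upper-quartile rescaling, 10 with the Cycle as a replicate block, 11 with edgeR, 12 with DESeq2 (both over 51 members), 0 with a 2-fold minimum, and 1 to 15 over leave-outs. With that minimum the later windows gave 23, 26, 24, 27, 26, 27 and 32. From 2 to 3 h to 4 to 6 h the members that rose numbered 4 with TMM and 13 with the block, 12 with Cycle 2 alone and 13 with Cycle 1 alone, and those that fell 5 with TMM and 5 with the block, with 2 and 5 in the same leave-outs. From 4 to 6 h to 7 to 10 h, 5 fell with TMM. From 24 to 27 h to 28 to 33 h of Cycle 1, 3 were lower with all libraries in the windows and 0 without the 26 h library. The block moved no other recomputed count by more than 1.5 times. The steps after 7 to 10 h were not among these counts. The smaller response of Cycle 2 at 2 to 3 h was called for 23 to 30 members over leave-outs of a starved library. The median hour of the highest value in Cycle 1 was 24.5 in single libraries, 15 over shared hours and 19 without the 24.5 h library, and in Cycle 2 it was 5 in single libraries.

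Over 34 named members, 4266 values were recomputed: 4066 stayed on their side of the threshold, 75 lost a call, 86 gained one and 39 changed sign, 27 of them at 1 to 1.5 h and none in a called value. Ubtf changed sign at 2 to 3 h (0.26 with TMM, 0.18 with upper-quartile rescaling, -0.0572 to 0.0509 over leave-outs), at 4 to 6 h (0.0156 with TMM, -0.4044 with Cycle 1 alone, where it was called lower, to 0.0799 with Cycle 2 alone), at 7 to 10 h (-0.0561 to 0.1581 over leave-outs), at 11 to 14 h (-0.0043 to 0.077), at 15 to 18 h (0.0042 with TMM) and at 19 to 23 h (-0.0684 to 0.2425, the latter with Cycle 1 alone and called higher). The cause was not tested. The late fall rests on 5 libraries of 1 time course. The leave-outs of the 34 to 38 h libraries and of the 26 h library were chosen after seeing the data.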
